A study of Mus musculus with 8 samples.

Results

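Cxcl9 and Cxcl10 encode small secreted chemokines that bind the receptor CXCR3 on activated T cells and natural killer cells. All probe sets whose platform symbol is Cxcl9 or Cxcl10 were taken, which gave 1 probe set for each gene (101436_at and 93858_at), 2 of the 12422 probe sets tested and 2 of 8251 named genes. The cells were CD8+ dendritic cells, an antigen-presenting subset, purified from the spleens of 60-day-old female DBA/2J mice that had all received Flt3-L, a growth factor that expands dendritic cells, at 10 µg for 9 days. They were kept in culture for 4 or 16 hours, without a cytokine (medium) or with mouse interferon gamma (IFN-γ) at 200 U/ml, which gives 4 groups with 2 Affymetrix MG-U74Av2 arrays each, 8 arrays in all. Whether both arrays of a group stem from different animals or cultures is not in the labels, and the p-values thus cover the spread between arrays only, which may be technical.

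Both genes belong to the CXC chemokines, named for a pair of cysteines with 1 residue between them, and they lie beside each other with Cxcl11, the gene of the remaining CXCR3 ligand, in a cluster on mouse chromosome 5. IFN-γ binds a receptor that signals through JAK kinases. This signalling acts on promoters with gamma-activated sites (GAS) and induces the transcription factor IRF1, which binds interferon-stimulated response elements (ISRE). Cxcl10 also responds to type I interferons and to NF-κB, whereas Cxcl9 is known for its strong dependence on IFN-γ. In lymphoid tissue the CXCR3 ligands made by dendritic cells guide T cells towards them.

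The sequences before the start of each gene are shown because the pair moved together on the arrays. In addition, only the stretch of Cxcl10 holds a match to the interferon letters searched. Other forms of interferon element were not searched, so a stretch without a match may still hold one. They are the 250 bases before the annotated start, 5′ to 3′ on the minus strand, from RefSeq on build GRCm38.p6, at chr5:92328080-92328329 for Cxcl9 and chr5:92348890-92349139 for Cxcl10. Capitals mark matches to an ISRE core (GAAA, 2 bases of any kind, GAAA), to the GAS element TTCNNNGAA, or to an NF-κB (κB) element, GGGNNTTCC in a 9-letter form or the same with 3 free bases in a 10-letter form. Both strands were searched, with letters chosen with these sequences in view.
Cxcl9: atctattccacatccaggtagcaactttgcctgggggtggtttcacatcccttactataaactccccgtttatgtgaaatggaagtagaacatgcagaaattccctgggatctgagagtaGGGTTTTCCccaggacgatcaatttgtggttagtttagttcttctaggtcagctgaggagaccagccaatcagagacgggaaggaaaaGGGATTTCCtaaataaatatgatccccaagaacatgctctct
Cxcl10: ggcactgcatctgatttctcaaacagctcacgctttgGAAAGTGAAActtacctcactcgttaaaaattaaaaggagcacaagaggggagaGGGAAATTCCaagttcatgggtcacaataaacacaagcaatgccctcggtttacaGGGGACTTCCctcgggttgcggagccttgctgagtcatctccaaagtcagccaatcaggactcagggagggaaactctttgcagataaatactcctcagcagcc

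The ISRE core was found in the Cxcl10 stretch, at positions -213 to -204 counted back from the start, and not in that of Cxcl9. Of 32851 RefSeq promoter stretches of this length, 2.98% held it. The GAS letters, held by 7.02% of all stretches, were in neither window. κB letters were in both: the 9-letter form stood at -130 to -122 and -42 to -34 in Cxcl9 and at -103 to -95 in Cxcl10, and 4.98% of all stretches held it. The 10-letter form, held by 4.65%, stood at -159 to -150 and -104 to -95 in Cxcl10, and the latter overlaps the 9-letter match there. An AP-1 element (TGANTCA, 6.75% of stretches) stood at -74 to -68 in Cxcl10 alone. The longest run common to both stretches was cagccaatcag, 11 bases that hold a CCAAT box, at -68 to -58 in Cxcl9 and -57 to -47 in Cxcl10, and 0.755% of all stretches held this run on either strand. Both had the letters ATAAATA nearer the start, at -30 to -24 in Cxcl9 and at -20 to -14 in Cxcl10 (5.17% of stretches). These are matches of letters and not tested sites.

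**Figure D1:**
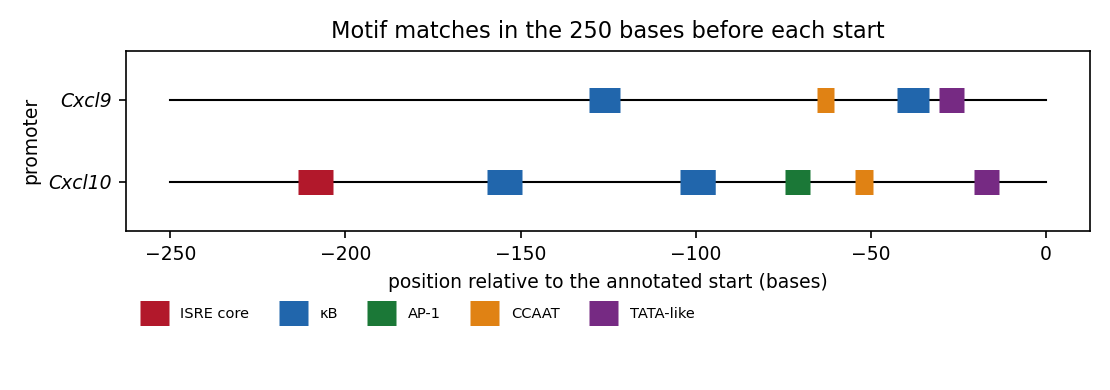
Motif matches in the 250 bases before the annotated start of Cxcl9 and Cxcl10; the x axis is the position relative to the start in bases, and each coloured block is a match. The CCAAT box and the ATAAATA letters stand in the same order in both, and the ISRE core and AP-1 blocks are in Cxcl10 only.

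Values are probe set intensities on a linear scale, compared on the log2 scale. As a measure of unspecific signal the median of 15 antisense control probe sets was used, with a range of 44.9 to 61.2 over the 8 arrays. Over all probe sets tested, array medians ranged from 51.3 to 53.7. For Actb, the signal of the 3′ probe set over that of the 5′ one, a sign of RNA and labelling quality, was 2.04 and 2.20 in medium at 4 hours, and 1.47 to 1.68 on the other 6 arrays. Replicate numbers 1 and 2 were taken to pair the arrays, because the differences of array 1 and 2 correlated between groups. The labels state no pairing. The value from the fit with the number as a block is given where it changes a call of Cxcl9 or Cxcl10, and for only some other genes. Cd8a, a defining gene of the sorted cells, lay between 429 and 542 and above the antisense median on every array, as did Itgax, the gene of CD11c, between 70.2 and 91.3. Of the markers measured, 4 of 5 for dendritic cells and 5 of 7 for CD8+ dendritic cells were above the antisense median on every array. The others were Zbtb46 and Itgae, below it on every array, and Xcr1, above it on 1.

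In medium, neither chemokine gene lay above the unspecific signal, and with IFN-γ both did. Cxcl9 read 30.5 and 34.1 in medium at 4 hours, then 18.4 and 19.8 at 16 hours, against antisense medians of 48.2 or more on these 4 arrays. The IFN-γ arrays read 519 and 615 for it at 4 hours, then 153 and 266 at 16 hours. All 4 IFN-γ arrays lay above all 4 medium arrays, with no overlap, and how many of all probe sets show the same was not counted. For Cxcl10 the medium arrays gave 43.3 and 46.0 at 4 hours, then 41.6 and 41.3 at 16 hours, again below the antisense median of each array. The IFN-γ arrays gave 207 and 250.1 at 4 hours, then 65.6 and 88.8 at 16 hours. Its IFN-γ arrays likewise lay above the medium arrays at both times, though at 16 hours it stood at 1.18 and 1.67 times the antisense median. At 4 hours with IFN-γ both genes were brighter than all 15 antisense controls. At 16 hours Cxcl9 was brighter than 14 and 15 of them on arrays 1 and 2, and Cxcl10 brighter than 10 and 13.

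**Figure D2:**
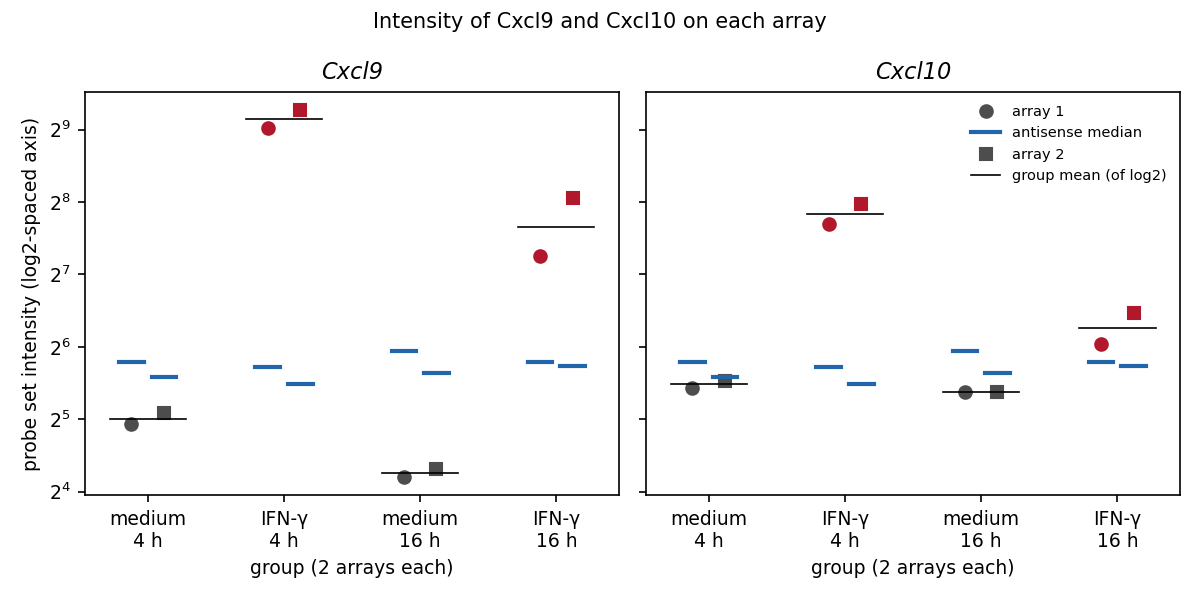
Probe set intensity of Cxcl9 (left) and Cxcl10 (right) on each of the 8 arrays, on a log2-spaced axis; circles are array 1 and squares array 2 of a group, thin black lines group means of the log2 values, and short blue lines the antisense median of that array. The medium arrays lie below the blue lines for both genes, the highest points are the IFN-γ arrays at 4 hours, and levels of different genes are not comparable.

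At 4 hours, IFN-γ raised both genes, and Cxcl9 had the largest rise of all 12422 probe sets. Cxcl9 went from a log2 intensity of 5.01 ± 0.11 to 9.14 ± 0.17 (SD, n = 2 per group). That is 4.13 higher (limma, SE 0.22, adjusted p = 0.000164), or 17.6-fold. Cxcl10 went from 5.48 ± 0.06 to 7.83 ± 0.19, 2.35 higher (limma, SE 0.16, adjusted p = 0.000278) or 5.10-fold, the third largest as measured, after Cxcl9 and the GTPase gene Iigp1 (2.63). Of all probe sets, 0.258% passed the test in this comparison, all of them higher with IFN-γ. Because the medium levels were below the unspecific signal, these folds are uncertain in size: set against the antisense median of the medium arrays, Cxcl9 was at least 11-fold and Cxcl10 at least 4.42-fold higher with IFN-γ. By replicate number the measured differences were 4.09 and 4.18 for Cxcl9 and 2.26 and 2.44 for Cxcl10. The Actb 3′ to 5′ ratio also differed between these groups, and its part in the differences was not tested. In RNA from whole cultures, more producing cells and more RNA per cell cannot be told apart.

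At 16 hours Cxcl9 still had the largest difference as measured, and that of Cxcl10 was smaller. The first place of Cxcl9 rests on medium values below the antisense median: with those at the antisense level its difference was 1.87, below the 2.08 of Iigp1. Cxcl9 stood at 4.26 ± 0.08 in medium and 7.66 ± 0.57 with IFN-γ, 3.40 higher (limma, SE 0.22, adjusted p = 0.000313) or 10.6-fold, and at least 3.66-fold against the antisense level. Cxcl10 stood at 5.37 ± 0.01 and 6.25 ± 0.31, a difference of 0.88 (SE 0.16), or 1.84-fold. Limma without the block gave it an adjusted p = 0.0886, which did not pass. It passed with the block (adjusted p = 0.0049) and also without array 1 of IFN-γ at 16 hours (adjusted p = 0.0192). Of all probe sets, 0.161% rose in this comparison, or 0.411% with the block. Against the antisense level Cxcl10 was at least 1.38-fold higher. Array 2 of IFN-γ at 16 hours read higher than array 1 for both genes, by 0.80 for Cxcl9 and 0.44 for Cxcl10 on the log2 scale, a wider gap than in the other 3 groups, where it lay between -0.01 and 0.27. Over all probe sets these 2 arrays also differed most, with an SD of the difference of 0.31, against 0.17 to 0.24 in the other groups. The SE pools the spread of all 4 groups. Limma on only the arrays compared gave Cxcl9 an adjusted p = 0.00564. Over both times together, the fitted effect of IFN-γ was 3.77 for Cxcl9 (SE 0.19, adjusted p = 3.19e-06, limma) and 1.61 for Cxcl10 (SE 0.25, adjusted p = 0.0159, limma), where 0.362% of probe sets rose. The latter did not pass without 1 or the other medium array at 4 hours (adjusted p = 0.0667 and 0.0704), or without array 1 of IFN-γ at 4 hours (adjusted p = 0.0828).

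Both transcripts fell between 4 and 16 hours in the presence of IFN-γ. Cxcl9 fell by 1.48 on the log2 scale (SE 0.22, adjusted p = 0.0132, limma) and Cxcl10 by 1.58 (SE 0.16, adjusted p = 0.00162, limma). Of all probe sets, 1.3% fell in this comparison. At 16 hours Cxcl9 was 0.295 and 0.433 times, and Cxcl10 0.316 and 0.355 times, its 4-hour level with the same array number. The change of Cxcl9 minus that of Cxcl10 was -0.10 for number 1 and 0.29 for number 2, so the sign differed between the numbers. The fall of Cxcl9 did not pass without array 1 (adjusted p = 0.0788) or array 2 (adjusted p = 0.139) of IFN-γ at 4 hours. Genes with larger falls in IFN-γ than both were Il1rn, which encodes the interleukin 1 receptor antagonist (-2.10), and Gzmb, the gene of granzyme B (-2.05). Larger than that of Cxcl9 only were those of the chemokine gene Ccl22 (-1.56), the costimulatory receptor gene Cd40 (-1.49) and 1 probe set without a single symbol (-1.54). The 4 named genes also fell in medium, with changes of -1.64 for Il1rn, -2.02 for Gzmb, -1.44 for Ccl22 and -1.16 for Cd40.

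In medium alone the members gave values below the unspecific signal at both times. Cxcl10 differed by -0.11 between 16 and 4 hours (SE 0.16, adjusted p = 0.77, limma). Cxcl9 differed by -0.75 (SE 0.22, adjusted p = 0.109, limma, or 0.00911 with the block). In this comparison 2.57% of probe sets fell, or 8.09% with the block. With every value below an array's antisense median raised to that median, the difference was 0.10 for both genes, which is the change of the antisense level itself.

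The effect of IFN-γ at 16 hours minus that at 4 hours was tested as an interaction. For Cxcl10 it was -1.47 (SE 0.22), the second largest decrease of 12422 probe sets, with an adjusted p = 0.269 (limma), or 0.00948 with the block. For Cxcl9 it was -0.73 (SE 0.32, adjusted p = 1, limma, or 0.341 with the block). Limma passed 0 probe sets in this comparison, with 353 at an unadjusted p under 0.05, and 0.242% passed with the block, each with a smaller or more negative effect at 16 hours. With dim values raised to the antisense median, the effects differed by -1.58 for Cxcl9 and by -1.68 for Cxcl10. The value for Cxcl9 thus depends on how the dim medium arrays are treated. Limma gave adjusted p = 0.000749 and 6.42e-05 there, which are not comparable with the other p-values. The antisense medians lie near the array medians, so many probe sets then share the same values, which changes the estimated spread. The difference for Cxcl9 was also -0.33 without array 1 and -1.13 without array 2 of IFN-γ at 16 hours. In the measured values the effect on Cxcl9 exceeded that on Cxcl10 by 1.83 and 1.73 at 4 hours for numbers 1 and 2, and by 2.40 and 2.65 at 16 hours. With time in medium, below the antisense median, the change of Cxcl9 minus that of Cxcl10 was -0.67 and -0.62. These gaps between the genes were not tested.

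The 32 probe sets that rose at 4 hours give a frame for this loss of effect, though they were chosen on their 4-hour values. As measured, Cxcl10 had the largest decrease among them. Its effect at 16 hours was 37.4% of that at 4 hours, against a median of 79.0% over the 32, and 82.3% for Cxcl9. These shares rest on medium values that for Cxcl9, Cxcl10 and Ubd were below the antisense median. With the medium arrays set at the antisense level the effect went from 3.46 at 4 hours to 1.87 at 16 hours for Cxcl9 and from 2.14 to 0.47 for Cxcl10. The effect at 16 hours was smaller in 25 of the 32, a count that the choice on 4-hour values favours. Ubd, which encodes a ubiquitin-like modifier and was below the antisense median in medium, kept 55.5%. Irf1 and Socs1, the inhibitor of the receptor's kinases, kept 115% and 108%. In the fall with time in IFN-γ, Cxcl9 and Cxcl10 were among 6 of the 32 that passed, where 1.3% of all probe sets fell. The IFN-γ arrays at 4 hours entered both the choice of the 32 and this fall, which tilts the count towards falls.

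**Figure D3:**
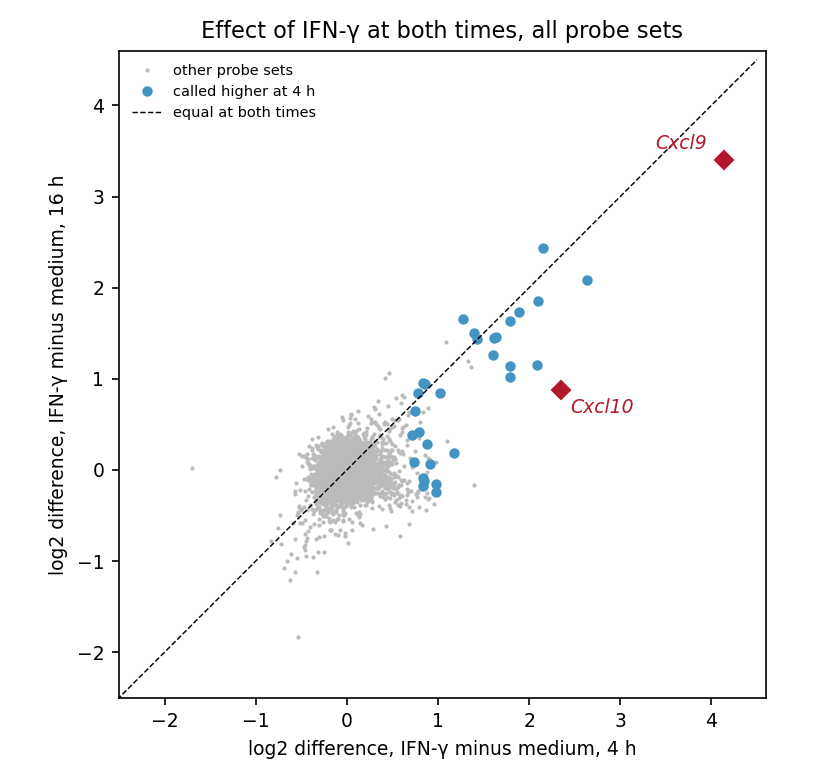
Log2 difference of IFN-γ minus medium at 4 hours (x axis) against that at 16 hours (y axis) for the 12422 probe sets tested; blue circles are probe sets that rose at 4 hours, red diamonds Cxcl9 and Cxcl10, and the dashed line marks equal differences. Cxcl9 lies at 4.13 and 3.40, and Cxcl10 at 2.35 and 0.88, the farthest below the line among those that rose.

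Other chemokine genes did not rise with IFN-γ in the fit without the block. Cxcr3, the gene of the receptor itself, was above the antisense median on all 8 arrays and differed by 0.05 at 4 hours and 0.24 at 16 hours (both adjusted p = 1, limma). Cxcl11 had no probe set with a single symbol and was not analysed here. Of the 9 other CXC, CX3C and XC chemokines measured, 0 passed at 4 or at 16 hours by limma, with a median of -0.04 at 4 hours against -0.01 over all probe sets. At an unadjusted p under 0.05, 1 was higher and 1 lower at 4 hours and 0 at 16 hours, and Cx3cl1, which encodes fractalkine, was lower at 4 hours with the block (-0.46), where 0.177% of all probe sets were. Cxcl1 and Cxcl2, whose products attract neutrophils, differed by -0.05 and -0.05 at 4 hours and by -0.23 and -0.30 at 16 hours. Cxcl2 fell with time in medium (-0.74, adjusted p = 0.0329) and in IFN-γ (-0.99, adjusted p = 0.0148). Of the 6 other receptors of these families, 0 passed with or without the block at either time by limma, and at an unadjusted p under 0.05 there were 0 at 4 hours and 1 at 16 hours, Cxcr2. Among those with the smallest p at 4 hours, Cxcr5 differed by 0.29, Cxcr4 by -0.37, Ackr3 by -0.08 and Cx3cr1 by 0.07.

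Of the 14 CC chemokines measured, 0 passed at 4 hours by limma, with 0 higher and 2 lower at an unadjusted p under 0.05, and 1 lower with the block. The latter was Ccl9, at -0.53 (adjusted p = 0.15 without the block, 0.0266 with it). At 16 hours Ccl9 fell by 1.83 (SE 0.11, adjusted p = 0.0002), while 0.0966% of all probe sets fell. Ccl8 and Ccl12, which encode monocyte chemokines, differed at 16 hours by 0.55 and 0.76. Neither passed without the block (adjusted p = 0.112 and 0.149) and both did with it (adjusted p = 0.0184 and 0.0338), Ccl12 from below the antisense median on every array. Between 4 and 16 hours in IFN-γ, 3 of these 14 rose (Ccl2 by 1.09, Ccl8 by 0.88 and Ccl12 by 0.995) and Ccl22 fell, while 0.821% of probe sets rose in all. In medium Ccl2 rose by 1.63, Ccl7 by 0.96 (from below the antisense median on every array) and Ccl9 by 1.36, and 1.71% of probe sets rose.

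**Figure D4:**
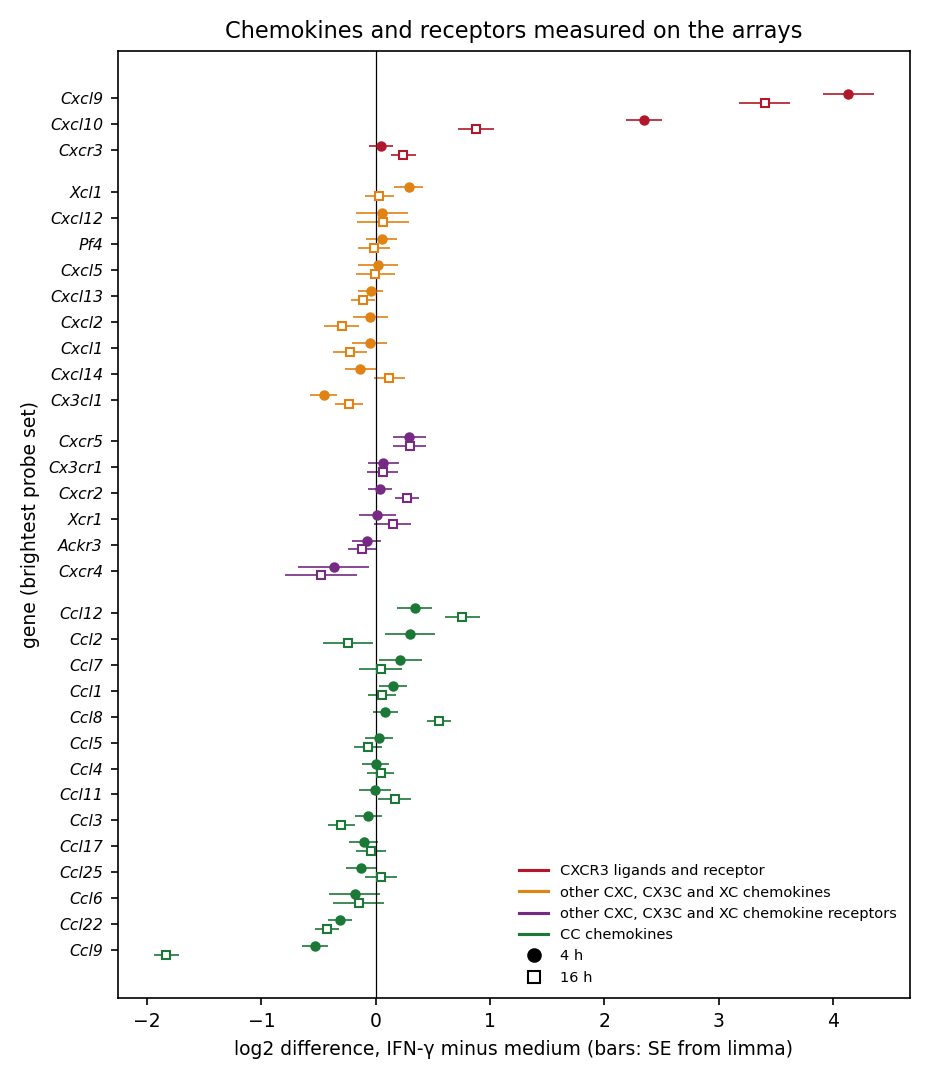
Log2 difference of IFN-γ minus medium for the chemokine and receptor genes measured, each by its brightest probe set; filled circles are 4 hours, open squares 16 hours, bars the standard error from limma, and colours the 4 gene lists. Cxcl9 and Cxcl10 stand apart on the right, and Ccl9 at 16 hours (-1.83) on the left.

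Among the genes of the pathway that leads to these chemokines, Irf1 and Socs1 rose at both times. Of 14 measured genes of the IFN-γ receptor, kinase and IRF1 path, 2 rose and 0 fell at 4 and at 16 hours, where 0.258% and 0.161% of all probe sets rose, with a list median of 0.02 and 0.11. At 4 hours Irf1 read 1036 and 1081 without IFN-γ, against 1866 and 1911 with it (0.84, adjusted p = 0.0123). At 16 hours the values were 799 and 799.9 against 1548 and 1555 (0.96, adjusted p = 0.0075). With time in IFN-γ, Irf1 differed by -0.28 (adjusted p = 0.227) and Socs1 by -0.12 (adjusted p = 0.787), beside the falls of 1.48 and 1.58 of the chemokine genes. The receptor genes Ifngr1 and Ifngr2 differed by 0.09 and -0.01 at 4 hours, and the kinase genes Jak1 and Jak2 by 0.03 and 0.00. Of 10 measured genes of the type I interferon receptor and its signalling, 0 passed at either time by limma, with or without the block. At an unadjusted p under 0.05, 2 were higher at 4 hours, Tyk2 (0.36) and Usp18 (0.48), and 1 was lower at 16 hours, Ifnar1 (-0.31). Ifnb1, which encodes interferon beta, was below the antisense median on every array.

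NF-κB genes did not pass with IFN-γ in the fit without the block, and some of them fell with time in culture. Of 11 measured subunits and inhibitors, 0 passed at 4 or 16 hours by limma, and at an unadjusted p under 0.05 there was 1 at 4 hours and 0 at 16 hours. That gene was Tnfaip3, an inhibitor of the pathway, at 0.69 (adjusted p = 0.112 without the block, 0.0163 with it), and 1.09% of all probe sets rose with the block. In medium 4 of the 11 fell between 4 and 16 hours, where 2.57% of all probe sets did: Nfkb2 by 0.82, Relb by 0.72, Rela by 0.62 and Nfkbia by 0.55. In IFN-γ 3 fell, where 1.3% of all did: Nfkb2 by 0.75, Relb by 0.70 and Tnfaip3 by 0.69. The other members did not pass in the respective comparison without the block, as with Tnfaip3 (0.23) and Rel (0.20) in medium. With the block 5 of the 11 fell in medium, with Nfkbib added, where 8.09% of all probe sets fell. In IFN-γ 6 fell with the block, with Rela, Nfkbia and Nfkbib added, where 862 of 12422 probe sets fell. The list median was -0.28 in medium and -0.37 in IFN-γ, against 0.05 over all probe sets in both. Of 7 measured genes of proteins that bind AU-rich elements, which control the decay of cytokine mRNAs, 0 passed with IFN-γ at either time by limma, with 0 at an unadjusted p under 0.05 and 0 with the block. Zfp36, which encodes the decay factor tristetraprolin, fell with time by 0.60 in medium (adjusted p = 0.0299) and by 0.58 in IFN-γ (adjusted p = 0.0487), and Hnrnpd by 0.65 in medium (adjusted p = 0.0385).

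Proteins that cut or bind chemokines gave 0 of 11 genes that passed with IFN-γ by limma at either time. At an unadjusted p under 0.05, 3 were lower at each time, and with the block Ctsl, the gene of a lysosomal protease, was lower at 16 hours (-1.12, adjusted p = 0.00486), where 0.435% of all probe sets were. Dpp4, the gene of the peptidase that trims CXCR3 ligands, differed by 0.03 and 0.04. Ctsb and Ctsl rose with time in medium, by 0.77 and 1.45, and in IFN-γ, by 0.75 and 0.90.

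The rise was not shared by the measured genes next to Cxcl9 and Cxcl10 on the chromosome. Of 21 measured genes, the nearest 10 on each side and Art3 between the pair, 0 passed with IFN-γ at 4 or 16 hours by limma, and at an unadjusted p under 0.05 there were 0 at 4 hours and 1 at 16 hours. Their differences at 4 hours lay between -0.31 and 0.22. Art3, an ADP-ribosyltransferase gene, read between 5.01 and 6.42 on the 8 arrays, far below the antisense median. Nup54, a nuclear pore gene next on the other side, differed by 0.02 and 0.00, and Scarb2, a lysosomal membrane protein gene, by -0.04 and -0.01. With the block 1 was lower at 16 hours, Anxa3 (-0.90, adjusted p = 0.0049). The 21 include Cxcl1, Cxcl2 and Cxcl13, further CXC genes of this chromosome. With time in medium Cxcl2 and Stbd1 (-0.63, adjusted p = 0.0311) fell, the latter below the antisense median on every array.

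Genes whose profile over the 8 arrays was most like that of the chemokine genes included several of the interferon-inducible GTPases. Among 157 probe sets with a single symbol and an SD of at least 0.5, those closest to Cxcl9 by Pearson correlation were Cnn3 (0.995), Wars (0.993), Igtp (0.984), Gbp7 (0.982), Irf1 (0.980), Nampt (0.979), Gbp3 (0.974) and Gbp2 (0.972). For Cxcl10 they were Ubd (0.966), Cxcl9 (0.941), Wars (0.940), Cnn3 (0.921), Casp4 (0.914), Nampt (0.909), Gbp7 (0.899) and Ifi47 (0.894). The arrays share groups and replicate numbers, so these values are descriptions of 8 points that fall into few clusters. Cxcl9 and Cxcl10 each had Cnn3, Wars, Gbp7 and Nampt in its list. At 4 hours Cnn3, an actin-binding calponin gene, read 58.0 and 66.9 without IFN-γ, against 197 and 235 with it. At 16 hours the pairs were 43.0 and 51.7 against 124 and 173. For Ubd they were 29.6 and 31.5 against 116 and 145 at 4 hours, and 34.5 and 24.6 against 64.9 and 64.9 at 16 hours. In neither gene did the IFN-γ arrays overlap the medium arrays, which the choice of genes by their likeness to the chemokine genes favours. The share of all probe sets without overlap was not counted. Like the chemokine genes, Ubd fell with time in IFN-γ (-0.997, adjusted p = 0.0217), as did Casp4, an inflammatory caspase gene (-0.81, adjusted p = 0.0482). In medium Ubd differed by -0.07 (adjusted p = 0.869) and Casp4 by -0.60 (adjusted p = 0.095 without the block, 0.00322 with it). Igtp, Gbp7 and Gbp2, which encode interferon-inducible GTPases, differed with time in IFN-γ by -0.29, -0.39 and -0.37 (adjusted p = 0.426, 0.466 and 0.25). Gbp7 and Gbp2 passed with the block (adjusted p = 0.0268 and 0.0324). In medium these GTPase genes differed by -0.12, -0.22 and -0.75, and only Gbp2 passed (adjusted p = 0.0197).

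**Figure D5:**
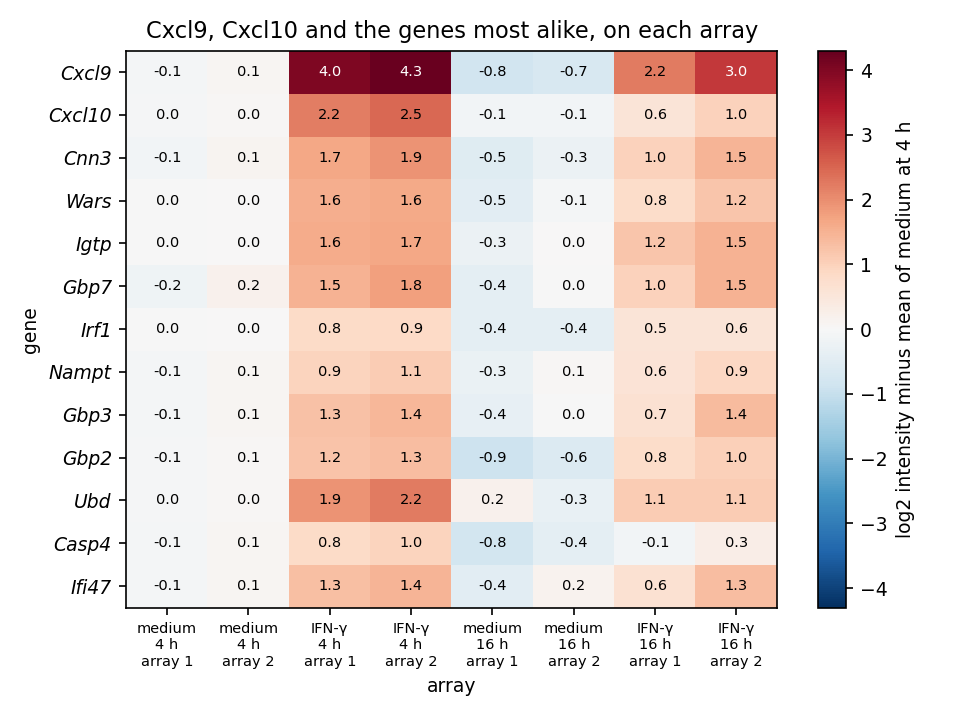
Log2 intensity of Cxcl9, Cxcl10 and the genes most like them on each of the 8 arrays, minus the gene's mean over the medium arrays at 4 hours; red is higher and blue lower, and each cell prints its value. The IFN-γ columns are red at 4 hours in all rows, and their mean is paler at 16 hours in all rows.

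Markers of macrophages and monocytes, which also make these chemokines, moved with time in culture. Of 8 measured macrophage and monocyte markers, 6 rose and 1 fell between 4 and 16 hours in medium, where 1.71% of all probe sets rose and 2.57% fell. In IFN-γ 5 rose and 1 fell, where 0.821% of all rose and 1.3% fell. At 4 hours their summed intensity was 2036 to 2179 in medium against 1342 to 1385 with IFN-γ. At 16 hours it was 4038 to 4933 in medium against 2465 to 3185 with IFN-γ. The sum mixes probe sets of unlike brightness, such as Lyz2 (698 and 756 in medium at 4 hours) and Mertk. With IFN-γ, Cd14 alone among these markers passed, at 16 hours (-1.08, adjusted p = 0.0137), and C1qa differed by 0.01 at 4 hours. Mertk was below the antisense median on every array. Of the 3 T cell and 4 B cell markers measured, each was above the antisense median on every array and none passed with IFN-γ by limma at either time or between the times. Of the 2 NK cell markers, Ncr1 was below it and Klrd1 above it on every array. Of 5 neutrophil markers, 4 were above it on every array, with S100a8 at 1217 to 1677 and S100a9 at 1008 to 1288. The same held for 2 of 3 markers of CD11b+ dendritic cells and 2 of 2 of plasmacytoid dendritic cells. Itgam, the remaining CD11b+ marker, rose with time in medium (1.12, adjusted p = 0.00858, limma). No marker of these last lists passed with IFN-γ at either time without the block. The part of these cells in the chemokine signal was not tested.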

How the data were processed

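Each of 8 MG-U74Av2 arrays measured RNA from cultured cells, from about 10 µg of total RNA, per the labels' protocols. The authors deposited intensity summaries per probe set. The submitters' processing notes name RMA, and its settings are not given in the sources used here. Values from 2.65 to 12523 show a linear scale, so log2 was taken with no pseudocount and no further normalization.

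Of 12488 probe sets, 66 controls were left out. Names came from the platform annotation, matched by gene number to RefSeq (GRCm38.p6): 10833 probe sets had 1 symbol, 396 several and 1193 none. Lists used each gene's probe set with the highest mean. Limma 3.58.1 in R 4.3.3 was fitted to the 4 group means over all 8 arrays, two-sided, with Benjamini-Hochberg adjustment over 12422 probe sets and a threshold of 0.05. The fit was also run on simulated data with independent errors on each array. That run lacked the differences shared by replicate number, so it does not cover them. All adjusted p-values come from limma. Between groups, the differences of array 1 and 2 correlated over probe sets with r from 0.367 to 0.740, so the numbers were taken to pair the arrays, on the data alone. Lower bounds used the mean log2 antisense median of the medium arrays.

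Members, lists, motifs and the rule for named genes were chosen with earlier results of these data known. The rule names the members, list genes that passed in any comparison or else the 4 with the smallest p at 4 hours, the 8 most alike genes, the chromosome neighbours and genes with larger changes than a member. A few further list genes were named after their values were seen. Alternatives were median centring, quantile normalization, a filter on the dimmest 40%, a floor at the antisense level, log2(value + 16), a trended and robust prior, only the arrays compared, the block, each array left out, a stricter adjusted p of 0.01, a minimum log2 difference of 1, and probe sets of a gene averaged.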

Additional observations from a re-analysis of the deposited data

Results flagged for a closer look

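The effect of IFN-γ on Cxcl10 differed between the times, by -1.47 on the log2 scale (16 minus 4 hours), in the limma test of the difference itself with the replicate number as a block (adjusted p = 0.00948), and not without it (adjusted p = 0.269). Both numbers showed the decrease, from 2.26 to 0.66 for number 1 and from 2.44 to 1.10 for number 2. At 16 hours Cxcl10 was near the unspecific signal even with IFN-γ, 1.18 and 1.67 times the antisense median, and the part of that floor in the decrease was not tested.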

How the results depend on the processing

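The rise of Cxcl9 at 4 and 16 hours and that of Cxcl10 at 4 hours kept their direction and passed under all 19 alternatives. Cxcl9 lay between 3.46 and 4.26 at 4 hours and between 1.87 and 3.80 at 16 hours, and Cxcl10 between 2.01 and 2.49 at 4 hours. With the floor at the antisense level, the difference of effects of Cxcl9 passed (-1.58), as did that of Cxcl10 (-1.68). Many probe sets share the floor values in that fit, so its p-values are not comparable with those of the others. The change with time in medium turned to 0.10 for Cxcl9, Cxcl10 and its neighbour Stbd1, by construction, since their medium values all lay under the floor. With the replicate block, Cxcl10 at 16 hours (0.88) and its difference of effects (-1.47) passed, as did Cxcl9 in medium (-0.75), which also passed in a fit of only the arrays compared (-0.75). At an adjusted p under 0.01, the fall of Cxcl9 with time in IFN-γ (-1.48) and the effect on Cxcl10 over both times (1.61) did not pass, nor did the latter with log2(value + 16), at 1.35. For those, the cause was not tested.

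With each array left out in turn, the time change of Cxcl9 in IFN-γ ranged from -1.89 to -1.08 and in medium from -0.83 to -0.67, its difference of effects from -1.13 to -0.33, Cxcl10 at 16 hours from 0.66 to 1.10, and Cxcl10 over both times from 1.41 to 1.85. With an IFN-γ array at 4 hours left out, Cxcl9 in IFN-γ did not pass (-1.61 and -1.36), and with one at 16 hours left out it passed in medium (-0.75 both times). Cxcl10 at 16 hours passed without array 1 of IFN-γ at 16 hours (1.10). Over both times it did not pass without 1 or the other medium array at 4 hours (1.45 and 1.49) or array 1 of IFN-γ at 4 hours (1.52).

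The block raised the probe sets that passed from 32 to 157 at 4 hours, from 32 to 105 at 16 hours, from 0 to 30 in the difference of effects, from 531 to 1567 in medium and from 263 to 1259 in IFN-γ. With an array left out these totals ran from 8 to 67, 10 to 38, 0 to 0, 73 to 923 and 27 to 708. Of the values and list counts of other genes under these alternatives, 259 no longer passed, 132 newly passed, 1 reversed and 505 that carry no call moved by more than the spread between arrays or, for counts, by over 1.5 times. The fit of only the arrays compared gives no value of its own for the difference of effects or for both times. Signal over background limits every fold against medium, and 2 arrays a group limit the precision.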

Other observations

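The interferon elements searched before Cxcl9 and Cxcl10 were also counted before the 11 other genes most like them. Of the 10 with an entry in the RefSeq promoter table, 4 held the ISRE core (Gbp2, Gbp3, Gbp7 and Igtp) and 3 the GAS letters TTCNNNGAA (Gbp7, Igtp and Irf1), where 3.46% and 8.13% of 27025 genes held each in any of their stretches. A κB element in both forms was in 2 of the 10, Casp4 and Ubd, where 5.61% of all genes held the 9-letter and 5.31% the 10-letter form. Of 19 chromosome neighbours with an entry, 0 held the ISRE core or the GAS letters, and G3bp2, Cxcl1 and Cxcl2 held the 10-letter κB form. These are counts of letters in short windows and were not tested.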
